A study of Mus musculus with 7 samples.

Results

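Malat1 and Neat1 are neighbouring long noncoding RNA genes on mouse chromosome 19. They were examined here in chromatin immunoprecipitation sequencing (ChIP-seq) peak lists of 3 retinoid receptors from mouse liver. The locus was selected on the RARα lists, because a high-scoring RARα peak at the Malat1 start was called in the retinoic acid (RA) library and not in the control library. The RARα values below are therefore a description. The RARβ and RXRα lists did not enter the choice. A peak was counted when its midpoint lay in the span of either gene or within 50 kb of it. By this rule 70 of the 245004 peaks in the 6 lists belonged to the window, which runs over chr19:5745690-5895480 (mouse build GRCm38, also called mm10), a length of 150 kb. The pair makes up 2 of the 49997 genes in the annotation table.

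Livers came from wild type C57BL/6 male mice aged 3 months that were fed either normal diet (control) or the same with RA, which RARs bind as their ligand. The labels give the feeding time as 1 day, whereas the methods of the study describe a longer feeding, so the duration is not settled here. Chromatin was pulled down with antibodies to RARα, RARβ or RXRα, with 1 library for each receptor and diet, and 1 input library served all of them. The design asked where each receptor binds and how binding differs between receptors and between diets. No group had a replicate, so no difference below has a replicate check or a p-value, and differences between lists cannot be told apart from differences between libraries. How many mice gave each library is not given in the sources used here.

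Malat1 encodes an abundant RNA that stays in the nucleus and gathers in nuclear speckles, bodies rich in splicing factors. Its 3′ end is cut to release a small tRNA-like RNA named mascRNA. Neat1 encodes the RNA scaffold of paraspeckles, and its short and long isoforms share a start. RARs bind DNA mainly as heterodimers with an RXR such as RXRα, usually at repeats of a short hexamer. RA binding to the RAR changes the cofactors the heterodimer carries.

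Both genes are transcribed from the minus strand, so upstream means towards higher coordinates. Malat1 spans chr19:5795690-5802672, a length of 6983 bp, and Neat1 spans chr19:5824708-5845480, a length of 20773 bp. The Malat1 start lies 22.0 kb from the 3′ end of Neat1. The promoter of Malat1 is shown because 4 of the 6 lists have a peak that covers this start. The sequence is from RefSeq (GRCm38.p6, minus strand, chr19:5802623-5802922), read 5′ to 3′, with the first 50 transcribed bases in capitals.
Malat1: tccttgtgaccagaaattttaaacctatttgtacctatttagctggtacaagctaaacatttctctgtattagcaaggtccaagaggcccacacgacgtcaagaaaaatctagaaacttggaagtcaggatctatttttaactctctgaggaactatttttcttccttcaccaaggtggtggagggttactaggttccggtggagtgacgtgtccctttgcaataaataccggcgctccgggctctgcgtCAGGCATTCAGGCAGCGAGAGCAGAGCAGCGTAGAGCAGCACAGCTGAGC
The 300 bases hold 47% G and C, against a mean of 53.8% over the promoters of the table, and 10 CpG pairs against a median of 7. Common forms of the receptor hexamer were searched on both strands, and none of them occurs in these 300 bases. The 300 bases cover only part of each peak over the start. They hold none of the stretch farther upstream, at chr19:5803313-5803914, that lies inside a peak of all 6 lists. The remaining bases under the peaks were not searched. Of 32851 promoters of the same length, 16.3% hold the form AGGTCA. The form written GGGTCA is found in 13.7% of them, the form written AGTTCA in 14.0% and the form written GGTTCA in 10.4%, and a promoter may hold several. At least 1 of these was found in 43.7%.

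Each peak carries the score of its peak caller, which is 10 times the negative log10 of a p-value, with 50 as the lowest value in the lists. The scores were not normalised between libraries and grow with read number, which is not given per list. Peaks are therefore compared by their percentile, the share of peaks in the same list with a lower score. The window held 7 of 35521 RARα peaks under control and 13 of 44296 under RA. For RARβ it held 7 of 14968 peaks under control and 10 of 29467 under RA. For RXRα it held 15 of 61128 peaks under control and 18 of 59624 under RA. The window count under RA was 1.86 times that under control for RARα, while the whole list grew by a factor of 1.25. For RARβ the corresponding ratios were 1.43 in the window and 1.97 in the list, and for RXRα they were 1.2 and 0.975. With only peaks that scored at least 100, the RARα count was 3 under control and 8 under RA, that of RARβ 1 and 5, and that of RXRα 11 and 11. The lists then grew by factors of 1.35, 3.06 and 0.991. No order of window against list is read from these small counts.

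**Figure D1:**
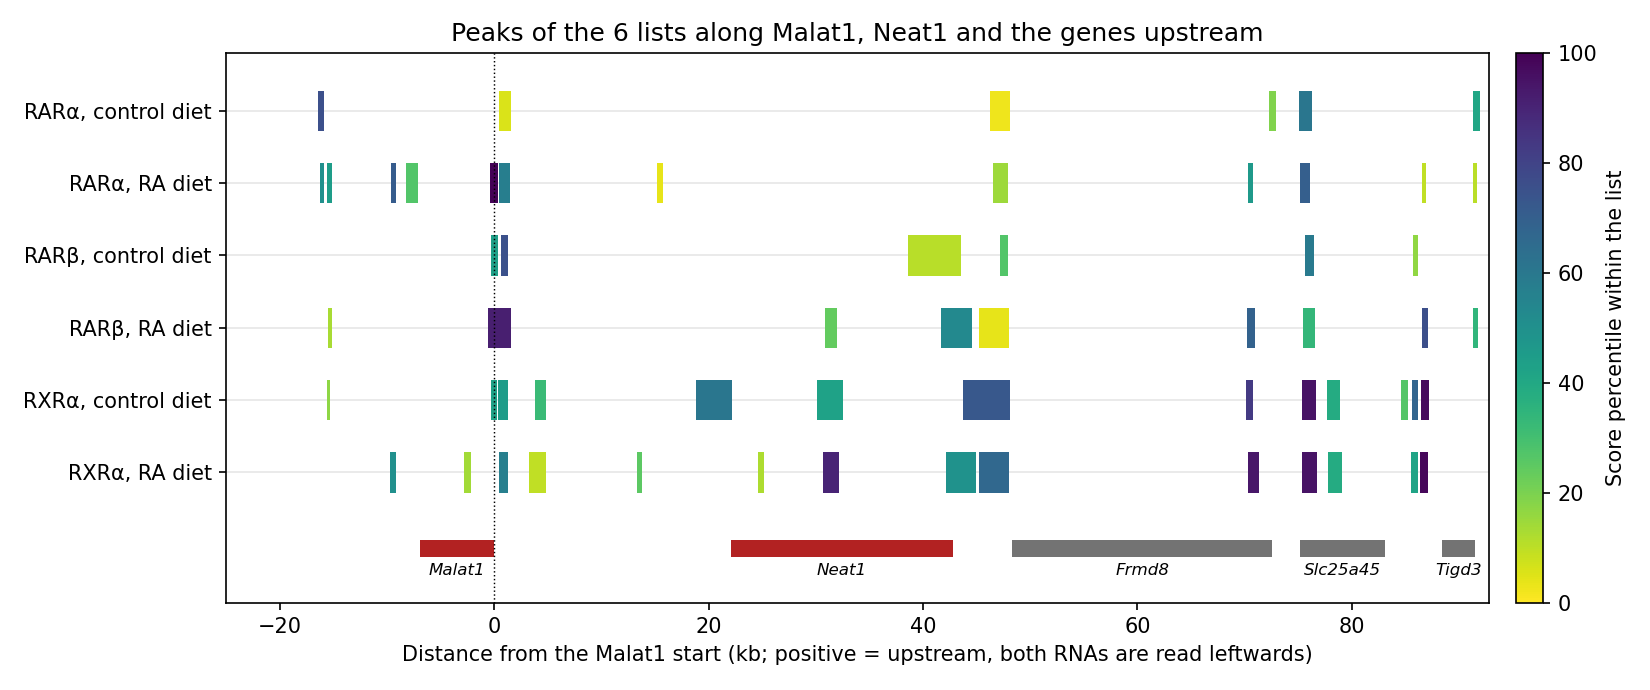
Peaks of the 6 lists along the pair and the genes upstream of it, with distance from the Malat1 start in kb on the horizontal axis, 1 line of bars per receptor and diet, and colour for the score percentile within the list. Grey and red bars at the bottom are genes, and the whole window, of which the outer part beyond the Malat1 3′ end is not drawn, holds 7, 13, 7, 10, 15 and 18 peaks from top to bottom.

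Peaks of the window were wider than usual for their lists. The median width was 935 bp for RARα under control against 583 bp in its list, and 551 bp under RA against 450 bp. It was 626 bp for RARβ under control against 503 bp, and 1043.5 bp under RA against 675 bp. RXRα gave 770 bp under control against 545 bp, and 738 bp under RA against 563 bp. By score the window did not stand out, and 41 of the 70 peaks lay below the median of their list. The 8 peaks above the 90th percentile were 1 of RARα at the Malat1 start, 1 of RARβ over the same start, and 6 of RXRα, of which 1 lay inside Neat1 and 5 in or beside Frmd8, Slc25a45 and Tigd3.

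The Malat1 start differed between lists. In the RARα list under control no peak covered it. Under RA a peak of 726 bp at chr19:5802278-5803003 did, with a score of 818, rank 188 of 44296 and percentile 99.6. It reached from 331 bp upstream to 394 bp downstream of the start, and 113 bp separated it from the nearest control peak. This is the peak that chose the locus, and it had the highest score of the 13681 RARα peaks under RA with no overlap at all under control. Next in that order were a peak 0.241 kb from the start of Hhex, a homeobox factor of liver development, with a score of 791, and a peak 0.672 kb from the start of Apob, the structural protein of very low density lipoprotein, with a score of 627.

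The RARβ lists covered the Malat1 start under both diets. Under control a peak of 606 bp at chr19:5802398-5803003 had a score of 70.5 and percentile 43.5. Under RA a single peak of 2134 bp at chr19:5802088-5804221 took in both the start and the upstream site, with a score of 246 and percentile 91.6. The RA peak is one call over what the control list gives as 2 separate peaks, so its percentile cannot be set against that of the start peak alone. In the control list of RXRα a peak of 528 bp at chr19:5802383-5802910 covered the start with a score of 118 and percentile 42.6. In the RXRα list under RA no peak covered it, and the nearest one was 189 bp from that control peak. The start was thus called under RA alone for RARα, under both diets for RARβ, and under control alone for RXRα. Every list was then cut to its 14968 highest-scoring peaks, the length of the RARβ control list, which thus lost none. The RXRα control list was cut from 61128 peaks and kept scores of 283.94 or more. Its peak over the start dropped out, while the RARα and RARβ peaks under RA stayed. The RARβ control peak could not drop out, so the cut does not set RARβ against RXRα under control. Among peaks within 1 kb of any gene start, the Malat1 start peaks stood at percentile 99.3 for RARα under RA, 26.1 for RARβ under control, 85.9 for RARβ under RA and 42.6 for RXRα under control.

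**Figure D2:**
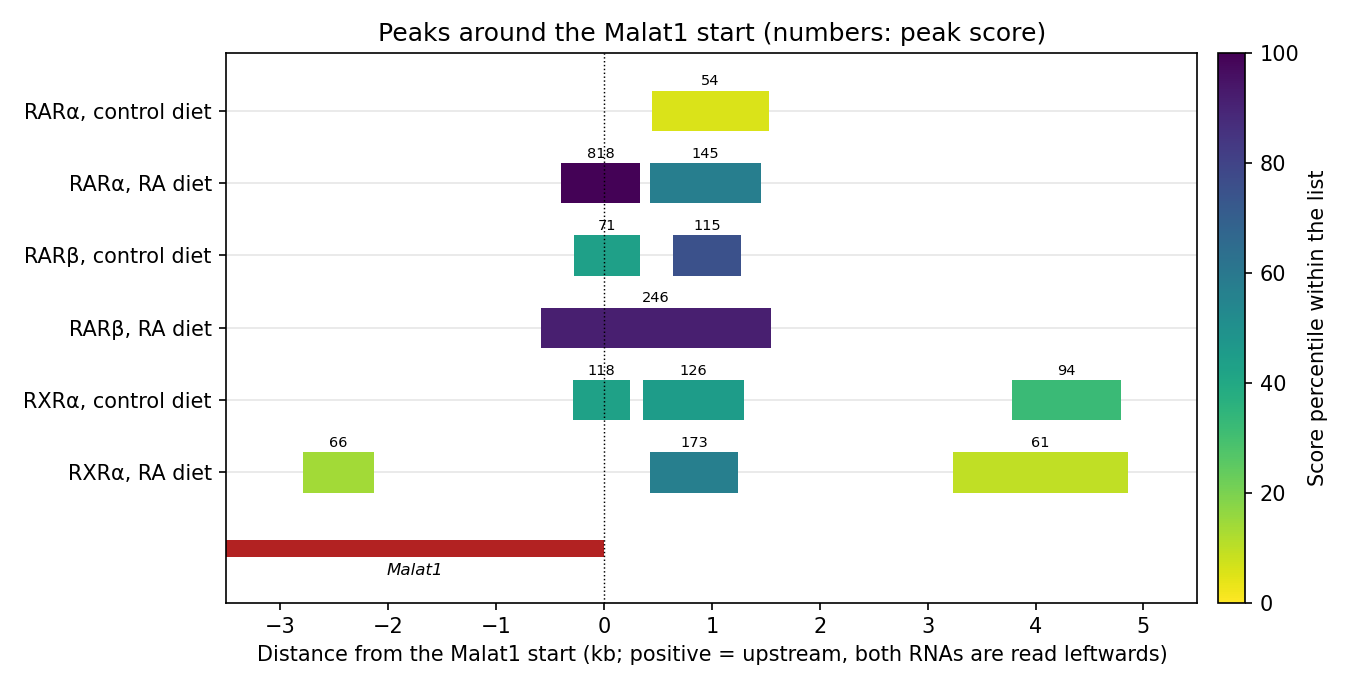
Peaks around the Malat1 start, with distance from the start in kb on the horizontal axis, numbers for peak scores and colour for the score percentile within the list. A peak covers the start in 4 of the 6 lists, and a site upstream of it is called in all 6.

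Coverage of a gene start by a peak was frequent in these lists. Of 36751 genes with a known start, the share with a start inside a peak was 31.4% for RARα under control and 30.6% under RA. It was 20.7% and 26.9% for RARβ, and 25.1% and 27.1% for RXRα, in the same order. Coverage under RA alone was found at 1.87% of genes for RARα, the class that holds Malat1, and coverage under control alone at 2.66%. For RARβ these shares were 7.84% and 1.58%, and Malat1 belonged to neither class. For RXRα they were 4.75% and 2.7%, and Malat1 was in the second. The full pattern of Malat1 over the 6 lists was shared by 9 genes in all, Malat1 included, or 0.0245%. A start called under RA alone for some receptor and under control alone for another was found at 1.71% of genes. Malat1 belongs to both classes through the RARα call that chose the locus, so nothing is read from how few genes they hold.

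Upstream of Malat1 lay a site that every list called. Its peaks had midpoints from 829 to 987 bp upstream of the start, leaving out the long RARβ peak under RA, and the stretch at chr19:5803313-5803914, which is 602 bp long, lay inside a peak of all 6 lists. In the RARα lists the score was 53.9 under control, at percentile 5.61, and 145 under RA, at percentile 57.5. The RARβ peak under control scored 115, at percentile 75.0, and was the highest of its list in the window. The RXRα peaks scored 126 under control and 173 under RA, at percentiles 45.2 and 57.1. RARβ under RA had no separate peak here, since its long peak joined this site to the start. The upstream site was thus inside a peak under both diets for each receptor. For RARα and RXRα its percentile was lower under control, with 1 library per receptor and diet. The RARα peak under RA, at chr19:5803096-5804127, lies beside the start peak that chose the locus, so nothing is read from the RARα difference.

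Within Malat1 itself few peaks were called. The RXRα list under RA held a peak of 658 bp at chr19:5799879-5800536, with a score of 66.0 and percentile 14.0, centred 35.3% along the transcript. No other peak had its midpoint in the gene body away from the start. Past the 3′ end, where the mascRNA sequence lies just inside the gene, RARα under RA had a peak of 1120 bp that stopped 135 bp short of the gene, with a score of 78.9 and percentile 27.0. Farther out, 2181 and 2156 bp beyond the end, RARα under RA and RXRα under RA each had a peak, with scores of 200 and 145 and percentiles of 71.3 and 50.2. Neither receptor had a control peak there.

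Further past the 3′ end, at chr19:5787023-5787519, RARα under RA had a peak with a score of 110. RARβ under RA had a peak there with a score of 58.4, and RXRα a peak with a score of 68.8 that was called under control and not under RA. Beside it a RARα site was called under both diets, with a score of 211 under control, the highest of that list in the window, and 123 under RA. The percentiles of this RARα pair were 75.7 and 50.3. Between Malat1 and Neat1, RXRα had peaks at chr19:5806458-5807464 under control and chr19:5805904-5807524 under RA, with scores of 94.2 and 60.8. RARα under RA had a peak with a score of 54.3 and RXRα under RA a peak with a score of 82.7 closer to Neat1. All of these intergenic peaks but the RARα pair lay below the median of their lists.

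Over Neat1 the peaks were those of RARβ and RXRα. No RARα peak had its midpoint in Neat1 or covered its start under either diet. The RARβ lists covered the start under both diets. The control peak was 4976 bp wide, with only 4 wider peaks in its list, and reached from 728 bp upstream to 4247 bp downstream of the start with a score of 53.3 and percentile 10.9. The RA peak was 2812 bp wide and reached from 1724 bp upstream to 1087 bp downstream, with a score of 104 and percentile 52.8. These peaks were broad and of low to middle score. RXRα covered the Neat1 start under RA only, with a peak of 2840 bp, a score of 142 and percentile 49.3. The pattern of Neat1 over the 6 lists was shared by 18 genes in all, or 0.049%.

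Inside Neat1, close to the middle of the transcript, RXRα was called under both diets. Under control a peak of 2441 bp had a score of 117 and percentile 42.3, and under RA a peak of 1501 bp had a score of 510 and percentile 90.1. They were centred 55.2% and 54.9% along the gene. RARβ was called at the same place under RA, centred 54.9% along the gene, with a score of 67.3 and percentile 23.9, and not under control. RXRα had a weaker peak under RA at 86.4% of the gene length, with a score of 63.9 and percentile 12.4. Under control RXRα had a peak of 3302 bp at the 3′ end of Neat1, overlapping it by 96 bp, with a score of 185 and percentile 60.8, and no counterpart under RA. Under RA the highest score inside Neat1 was thus that of RXRα in the gene interior and not at the start.

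**Figure D3:**
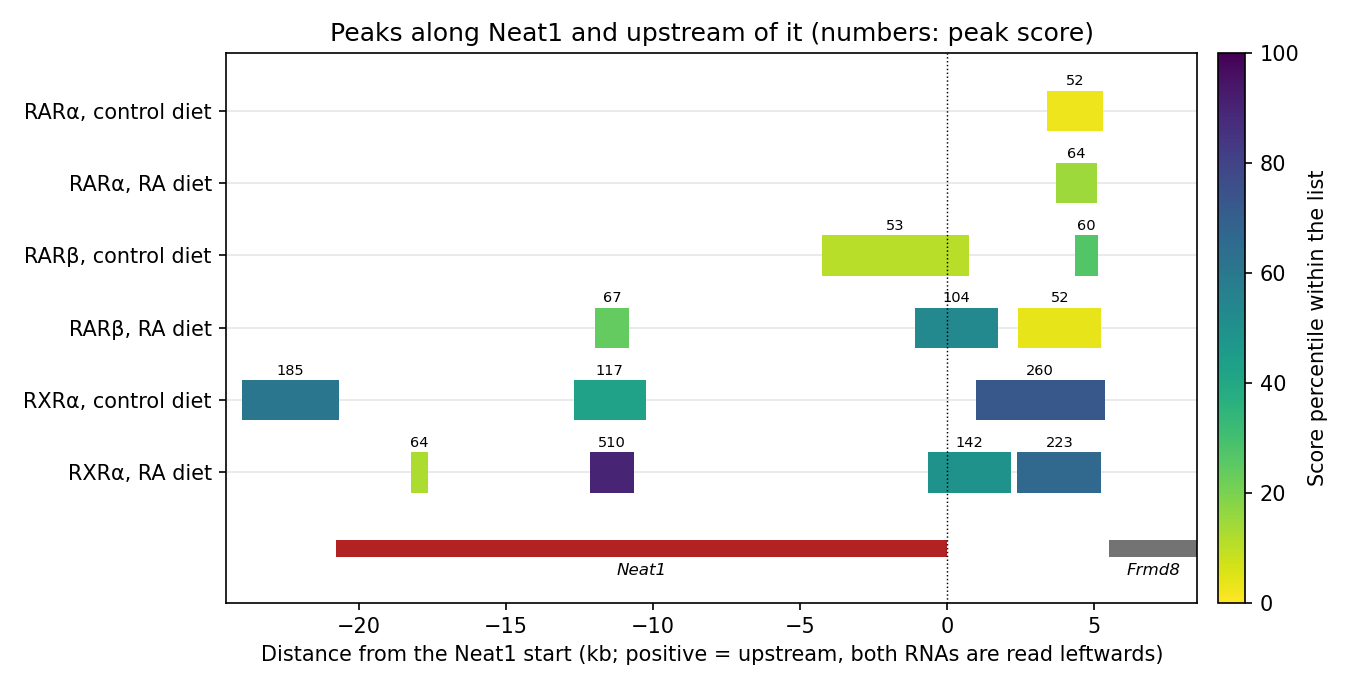
Peaks along Neat1 and upstream of it, with distance from the Neat1 start in kb on the horizontal axis, numbers for peak scores and colour for the score percentile within the list. RARα has no peak in the gene, RXRα has an interior peak with scores of 117 and 510, and all 6 lists have a peak upstream.

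Upstream of Neat1 all 6 lists had a peak, and the stretch at chr19:5849819-5850571, 4339 to 5091 bp upstream of the start, lay inside each of them. The 3′ end of Frmd8 lies 5.49 kb from the Neat1 start, so this stretch is closer to Frmd8 than to that start. RARα scored 51.7 under control and 64.4 under RA, at percentiles 2.4 and 14.7. RARβ scored 60.1 and 52.2, at percentiles 27.1 and 3.8. RXRα scored 260 and 223, at percentiles 72.8 and 66.7, with widths of 4380 bp and 2867 bp. The RXRα control peak also overlaps the RA peak over the Neat1 start, so its values cannot be set against those of the upstream RA peak alone. The upstream site of Neat1 was near the floor of the RAR lists and above the median of both RXRα lists. Of the 9 peaks in the window that were 2 kb wide or wider, 8 lay within 5 kb of Neat1, and the other was the RARβ peak over the Malat1 start. Peaks of that width made up 1.51% of the RARα list under control and 0.939% under RA, 0.234% and 1.28% of the RARβ lists, and 0.545% and 0.966% of the RXRα lists.

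Genes beside the pair varied in their occupancy. Slc25a45, a member of the mitochondrial carrier family, had a peak within 1 kb of its start in all 6 lists. Scores, each time control before RA, were 143 and 194 for RARα, 86.7 and 77.4 for RARβ, and 651 and 690 for RXRα. RARα was at percentiles 60.9 and 69.9, and RARβ at percentiles 59.3 and 33.9. In this gene RXRα was at percentiles 95.0 and 95.2, above its values at either noncoding RNA start. Counted by midpoint, Malat1 likewise had a peak within 1 kb in all 6 lists, and Neat1 in 2, which were RARβ and RXRα under RA. The RARβ control peak that covers the Neat1 start is not counted, because its midpoint lies 1.76 kb from the start.

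Tigd3, derived from a transposable element, had a start peak in 3 lists, with scores of 93.7 and 60.3 for RARα under control and RA and 78.2 for RARβ under RA. Their percentiles were 41.0, 10.2 and 34.6. Frmd8, which encodes a FERM domain protein, had one only in the RARα list under control, with a score of 64.7. A second site lay 1.73 to 2.06 kb inside Frmd8, where RXRα scored 360 under control and 639 under RA, RARα scored 114 under RA and RARβ scored 139 under RA. Their percentiles were 82.8, 94.0, 46.4 and 69.0. Ltbp3, a binding protein of latent TGF-β, had no peak near its start in any list. Between the 3′ ends of Slc25a45 and Tigd3 stood the highest RXRα peaks of the window, with scores of 818 under control and 944 under RA and percentiles of 97.4 and 98.1. There RARα under RA scored 59.8 and RARβ under RA scored 159, and neither RAR had a control peak over it. Just beside it, on the Slc25a45 side, RXRα scored 223 under control and 118 under RA, and RARβ scored 55.5 under control alone. These were at percentiles 67.6, 41.6 and 16.7.

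Other RXRα peaks were called away from the pair. Inside Ltbp3 it scored 135 under control and 74.2 under RA, and inside Slc25a45, 3.16 and 3.31 kb from the start, it scored 109 and 111. A single peak was called under RA at chr19:5751718-5752087, with a score of 77.7, and another under control at chr19:5887290-5887907, with a score of 84.1. None of these 6 peaks reached the median of its list.

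**Figure D4:**
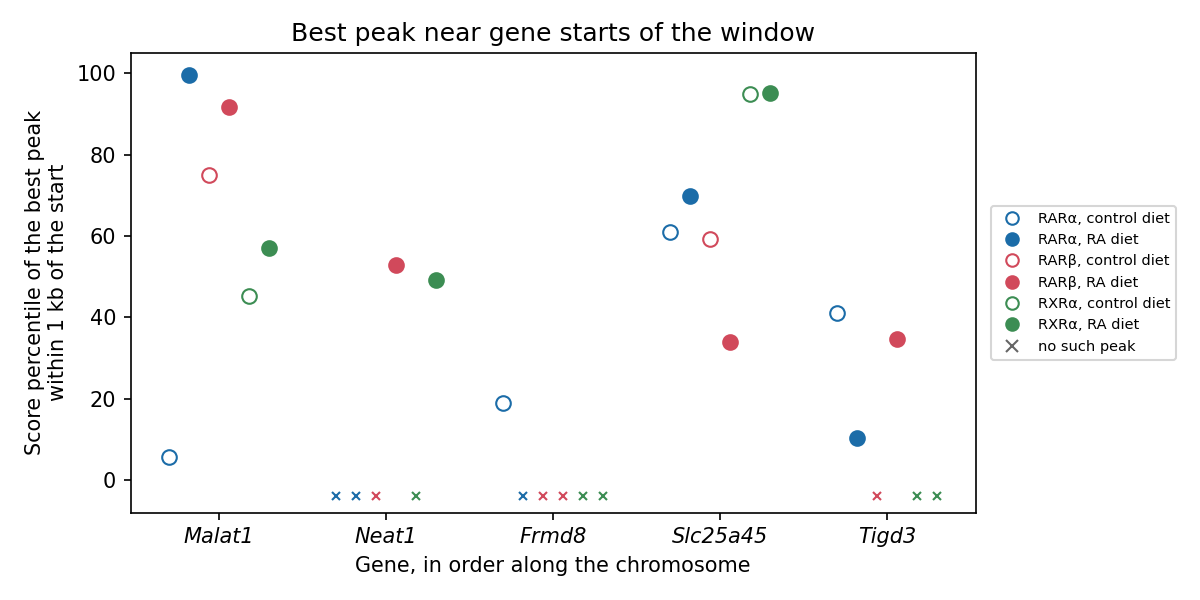
Score percentile, within its list, of the best peak within 1 kb of the start of Malat1, Neat1 and 3 genes upstream, with open circles for control, filled circles for RA and crosses where no such peak was called. For Malat1 the lowest value, 5.61 for RARα under control, is at the upstream site, where RARα under RA is at 57.5. The highest, 99.6 for RARα under RA, is the start peak that chose the locus. Peaks are placed by midpoint, and Neat1 has one within 1 kb in only 2 lists. The RARβ control peak that covers the Neat1 start has its midpoint farther away.

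Most window peaks had a counterpart under the other diet, defined as an overlap of at least 25% of both widths. For RARα, the receptor used to choose the locus, 1 of 7 control peaks and 7 of 13 RA peaks had none, against 15.8% and 31.6% of the whole lists, and nothing is read from this. For RARβ, 1 of 7 control peaks and 5 of 10 RA peaks had none, against 24.2% and 61.8%. For RXRα, 4 of 15 and 6 of 18 had none, against 21.3% and 19.7%. These are counts of a few peaks. Among RXRα peaks that scored at least 100, 2 of 11 under control and 1 of 11 under RA had none, against 7.87% and 6.51% of such peaks in the lists. No direction is read from the RARβ and RXRα counts.

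Sharing of RAR peaks with a second receptor was near the level of the whole lists, on 7 to 18 peaks a list. Nothing particular to the locus is read from it. The counts of matched peaks in the second list have no whole-list share beside them, so they are not compared. Under control 4 of 7 RARα peaks overlapped RXRα, against 61.1% of the list, and these were matched by 4 of 15 RXRα peaks. Among RARβ peaks 5 of 7 overlapped RXRα, against 77.8%, and 4 of 7 overlapped RARα, against 74.2%, matched by 5 of 15 RXRα and 4 of 7 RARα peaks. Under RA 7 of 13 RARα peaks overlapped RXRα, against 61.7%, matched by 7 of 18. For RARβ under RA, 8 of 10 overlapped RXRα, against 89.9%, matched by 8 of 18, and 8 of 10 overlapped RARα, against 72.1%, matched by 9 of 13. After overlapping peaks were merged across lists, the window held 25 regions, of which 10 were called in a single list and 4 in all 6. They included the start of Slc25a45, Malat1 with its upstream site, and Neat1 with its upstream site, and 9.76% of the 87787 merged regions of the genome were called in all 6. Regions called under RA alone for some receptor and under control alone for another made up 2.96% of them, and 1 lay in the window, past the Malat1 3′ end.

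Peak counts around the pair were above the upper quartile over all genes, except for Malat1 in the RARα list under control (4 against 5). Counted in the gene span and within 50 kb of it, Malat1 had 4 RARα peaks under control and 9 under RA, 5 and 6 RARβ peaks, and 9 and 13 RXRα peaks. Neat1 had 6 and 12, 6 and 9, and 13 and 14. The median over 49943 genes was 2 and 3 for RARα, 1 and 2 for RARβ, and 3 and 3 for RXRα. The count of Neat1 exceeded that of 80.7% to 97.2% of genes, and the count of Malat1 that of 64.2% to 94.0%, over the 6 lists. The RARα lists chose the locus, and 97.2% is the value for RARα under RA. In the RARβ and RXRα lists alone the ranges were 93.5% to 96.4% for Neat1 and 80.7% to 94.0% for Malat1. These are the same peaks counted from overlapping windows, and a longer gene has a longer window.

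No peak lay within 13.9 kb outside the window, so a limit wider by less than that would have added none. On the lower side the first RXRα peaks lay 1.43 and 1.42 kb inside, with scores of 135 and 74.2. The nearest peaks outside on that side lay 13.9 to 16.1 kb away, with scores from 67.8 to 136. On the upper side the last peaks lay 1.16 to 6.88 kb inside, with scores from 55.5 to 944, and the nearest outside lay 17.5 to 17.6 kb away, with scores from 108 to 441.

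Proteins of the nuclear bodies that hold these RNAs were set beside the pair. A peak midpoint within 1 kb of a start was found at 34.3% and 34.8% of all genes for RARα under control and RA, 23.6% and 29.6% for RARβ, and 31.1% and 32.2% for RXRα, and in all 6 lists at 17.7%. Of 15 paraspeckle protein genes, 15 and 15 had such a peak for RARα, 14 and 14 for RARβ, and 13 and 14 for RXRα, with 12 in all 6 lists. Among those 12 were Sfpq, Pspc1 and Rbm14, RNA binding proteins of the paraspeckle. Nono, the partner of Sfpq, lacked one only for RXRα under control, Tardbp only for RXRα under RA, and Cpsf6, a cleavage factor subunit, for RARβ under both diets and RXRα under control, and these 3 were named after their values were seen.

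All 12 nuclear speckle protein genes had such a peak in every list, among them Son and Srrm2, which form the core of the speckle, and Srrm1, a splicing coactivator. Of 18 other long noncoding RNA genes with a known start, 13 and 12 had one for RARα, 9 and 10 for RARβ, and 11 and 13 for RXRα. The 9 with one in all 6 lists included Gas5 and Snhg1, which host small nucleolar RNAs, and 4 had none in any list, namely the imprinted genes H19 and Meg3, and Miat and Ftx. Malat1 was thus among the long noncoding RNA genes with a peak near the start in all 6 lists, and Neat1 was not. With the lists cut to their 14968 highest-scoring peaks, the share of all genes with a start peak was 25.6% and 22.5% for RARα, 23.6% and 21.2% for RARβ, and 6.36% and 7.16% for RXRα. RARα then had a start peak at 15 and 13 paraspeckle genes and RARβ at 14 and 14. All 12 nuclear speckle genes kept one in the 4 RAR lists, of which that of RARβ under control was not shortened. RXRα had one at 2 and 1 paraspeckle genes, at 0 and 1 nuclear speckle genes and at 1 and 1 of the other long noncoding RNA genes. RXRα start peaks thus became few over all genes at this length, and not in these lists alone. The speckle and paraspeckle genes code for broadly expressed proteins, and whether their share differs from that of other such genes was not tested.

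**Figure D5:**
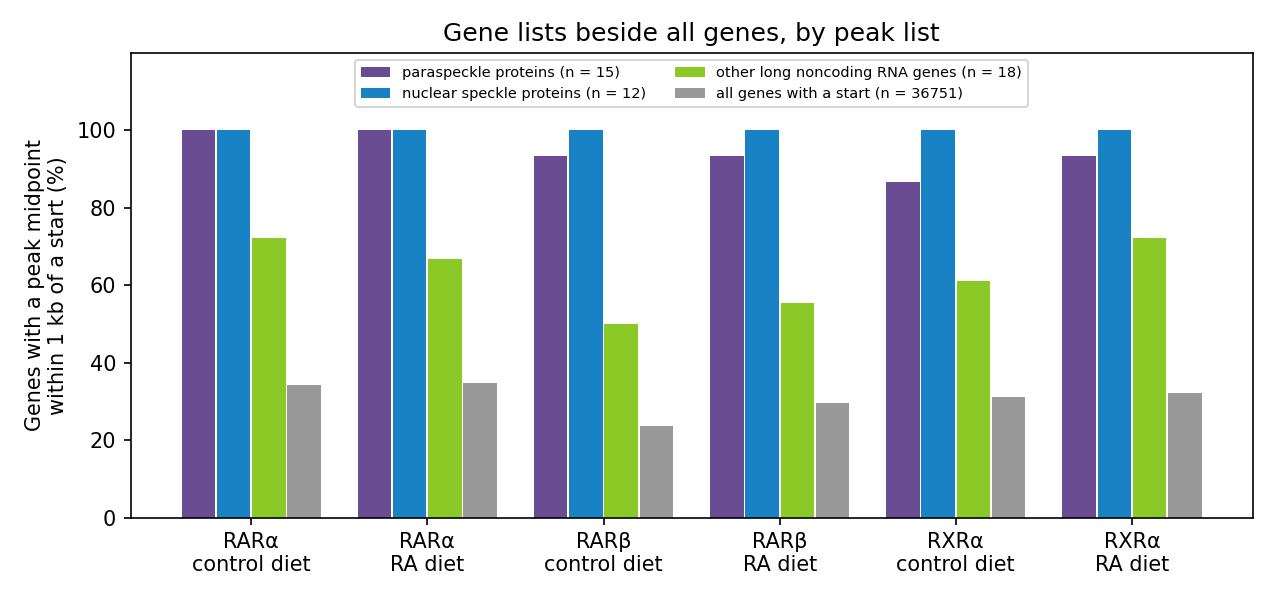
Share of genes with a peak midpoint within 1 kb of a start (percent, vertical axis) in each of the 6 peak lists, for 3 gene lists and for all 36751 genes with a start. Nuclear speckle protein genes stand at 12 of 12 in every list, paraspeckle protein genes between 13 and 15 of 15, and other long noncoding RNA genes between 9 and 13 of 18.

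Genes most like Malat1 in start occupancy were found from the score percentile of the best peak within 1 kb of the start in each of the 6 lists, as the smallest Euclidean distance in percentile points. Among them were 1600020E01Rik at 22.7, Rps6kb2, a ribosomal protein kinase, at 33.4, Cox8a, a subunit of cytochrome c oxidase, at 34.6, and Clu, a secreted chaperone, at 35.5. For Clu the RARα percentile was 0, meaning no peak, under control and 99.8 under RA. The RARβ percentile of Clu was 81.4 under control and 58.1 under RA, where Malat1 had 75.0 and 91.6. For Malat1 the RARβ control value is that of the upstream site. The RA value is that of the long peak that joined this site to the start. These Malat1 values belong to unlike peaks, so no direction is read from them or set against Clu. The measure includes the RARα lists that chose the locus.

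The peak lists hold no RNA levels, so neither the amount of Malat1 or Neat1 RNA nor the tissue could be read from them directly. As a check of the liver label, peaks were sought at the hepatocyte genes Alb, Apoa1, Ttr and Cps1. Within 1 kb of the start they had one in 2, 0, 2 and 3 of the 6 lists, and anywhere in the span or 1 kb around it in 5, 4, 5 and 3. None of the 4 had one in every list, so this check does not speak for or against the label.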

How the data were processed

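Liver ChIP-seq of RARα, RARβ and RXRα under control and RA diet was analysed as 6 deposited peak lists, 1 library each. Per the labels and the study's methods, the authors mapped single-end reads of 35 bp (Bowtie 0.12.7, build mm10), and MACS 1.4.1 made the peak calls against input. The deposited score of each peak is 10 times the negative log10 of the caller's p-value, not scaled between libraries, and the other deposited columns used are coordinates. The study's text gives read totals by receptor for RXRα and RARα, not for each list, so the depth per list is unknown. Peak ends on chromosome Y reached 90842021, beyond the older annotation, so only strand was taken from GENCODE M1 (9726 genes, matched by symbol and chromosome). Starts of 27025 genes came from the RefSeq GRCm38.p6 promoter table, and spans from RefSeq.

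Peaks were assigned by midpoint, and overlap meant 25% of both widths. Interval functions were checked on made-up intervals. Alternatives were a score of at least 100, lists cut to 14968 peaks, any overlap, and percentiles among peaks near starts. Shares over all genes in the shortened lists were added after seeing the data. With 1 library per group no test was run. Named genes were Malat1, Neat1, others in the window, examples from 3 gene lists (the first members with a peak in all 6 lists, and those with none), the 5 nearest Malat1 in start percentiles, the 3 top RARα peaks seen under RA only and the hepatocyte genes. The members and lists were chosen with earlier results of these data known. Tf, Rmrp and Rpph1 gave no value, and a few genes and the peaks at them are not reported here. The input library was not used here. Python 3.11.15, numpy 2.4.6, pandas 2.3.3 and matplotlib 3.10.9 were used.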

Additional observations from a re-analysis of the deposited data

Results flagged for a closer look

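Opposite diet patterns between receptors were found at 2 places. At the Malat1 start, RARα had a peak under RA alone, with a score of 818, which is the peak that chose the locus, and RXRα had a peak under control alone, with a score of 118. At an intergenic site past the Malat1 3′ end, RARα and RARβ had peaks under RA alone, with scores of 110 and 58.4, while RXRα had a peak under control alone, with a score of 68.8. Each rests on 1 library per receptor and diet, and the differences were not tested. Over the whole lists, 1.71% of gene starts and 2.96% of merged regions had such opposite calls. All but the RARα peak at the start lay below the median score of their lists.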

How the results depend on the processing

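Results depended on the score minimum and the list length more than on the overlap rule. With a score of at least 100, the window held 3 and 8 RARα peaks (control and RA), 1 and 5 RARβ peaks, and 11 and 11 RXRα peaks. With each list reduced to its 14968 highest-scoring peaks, it held 3 and 4 RARα peaks, 5 RARβ peaks under RA, and 3 and 4 RXRα peaks. The Malat1 start was then covered for RARα under RA and for RARβ under both diets, and no longer for RXRα under control. The RARβ control list has this length as deposited, so it lost no peaks and its start peak could not drop out. Of these peaks scoring at least 100, those without a counterpart in the full list of the other diet numbered 0 and 4 for RARα, 0 and 2 for RARβ, and 2 and 1 for RXRα. Over the whole lists the shares of such peaks were 3.21% and 12.5% for RARα, 4.55% and 43.5% for RARβ, and 7.87% and 6.51% for RXRα. No direction is read from these counts. In the equal lists RXRα had a start peak at 2 and 1 paraspeckle genes, 0 and 1 nuclear speckle genes, and 1 and 1 other long noncoding RNA genes, under control and RA, where 6.36% and 7.16% of all genes had one. The RARα and RARβ counts of these genes were within 1.5 times. Any overlap in place of midpoints, and 1 bp in place of 25%, left the 6 counts each within 1.5 times. No paired analysis was possible because each group has 1 library. Unknown depth per list limits every comparison between lists, and a site missing from a list may lie just under its threshold.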
